A study of Homo sapiens with 3 samples.

Results

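The genes described here are 5 caspases, CASP2, CASP6, CASP8, CASP9 and CASP10, together with APAF1, the scaffold that activates CASP9, and CFLAR and XIAP, which hold caspases back. They were chosen by symbol as apoptotic caspases with APAF1, CFLAR and XIAP, and all 8 were found on chromosomes, 8 of the 60609 gene models placed there. All 8 also passed the filter on low counts, among 17713 genes tested. Each symbol had 1 gene model in the table, so none of them was divided between a chromosome and an alternate scaffold.

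Poly(A)-selected RNA was sequenced from HEK293T cells, which derive from human embryonic kidney and express SV40 large T antigen, 72 hours after lentiviral infection at 5 particles per cell with 8 µg/mL polybrene. The control group was 1 library from cells given the pLKO.1 vector (genotype WT in the labels). The DDX24 knockdown group was 2 libraries, 1 infected with the hairpin shDDX24-1 and 1 with shDDX24-2, both in the pLKO.1 vector, so infection itself was common to all 3 libraries. The series concerns DDX24, a DEAD-box RNA helicase, and its effects on apoptosis and on oxidative stress.

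Caspases are proteases that cut proteins after aspartate and that carry out apoptosis. Initiator caspases are switched on in large complexes: CASP8 and CASP10 under death receptors at the cell surface, CASP9 on the APAF1 apoptosome once cytochrome c leaves the mitochondria, and CASP2 on a complex built by PIDD1 and CRADD. Initiators then cut effector caspases, of which CASP6 is one, and the effectors cut the bulk of the cell's substrates, such as the nuclear lamins. CFLAR (c-FLIP) resembles CASP8 but has no protease activity and competes with it at the receptor, while XIAP binds and blocks CASP9 and the effectors.

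The coding sequence around the catalytic cysteine shows what the caspases share and what CFLAR lacks. Each line below gives the codon of the catalytic cysteine in capitals with 24 bases on either side, from GENCODE release 29 transcripts. For CFLAR the capitals mark the codon at the same place in its best ungapped match to CASP8.
CASP8: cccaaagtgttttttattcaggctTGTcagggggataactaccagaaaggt
CASP10: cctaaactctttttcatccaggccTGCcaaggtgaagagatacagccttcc
CASP9: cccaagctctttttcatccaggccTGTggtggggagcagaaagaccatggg
CASP2: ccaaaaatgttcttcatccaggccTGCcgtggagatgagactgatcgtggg
CASP6: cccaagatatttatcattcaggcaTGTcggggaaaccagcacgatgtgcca
CFLAR: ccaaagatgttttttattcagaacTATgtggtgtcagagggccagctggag
The 5 caspases have TGT or TGC, the codons for cysteine, and CFLAR has TAT, a codon for tyrosine. Of the 51 bases, 32 in CASP9, 30 each in CASP10, CASP2 and CASP6, and 29 in CFLAR were identical to CASP8. Over the aligned coding sequences, CASP8 shared 50.9% of its bases with CASP10 and 45.6% with CFLAR. No stretch of 100 bases, the read length, was common to the annotated transcripts of any pair of the 8 genes, so whole reads of one could not match another exactly.

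The libraries held 52198744 counts for the control, 36738685 for shDDX24-1 and 37828270 for shDDX24-2. DDX24 was listed at 0 counts in all 3 libraries on both of its gene models, so these counts give no measure of the knockdown and no check of the labels. Of 9 kidney and epithelial markers, 7 reached 1 CPM (counts relative to library size, scaled by TMM) in at least 1 library, with KRT8, KRT18 and SALL1 the highest. PAX8 had at most 1 count. Endothelial markers summed to at most 1.21 CPM and blood markers to at most 3.60, with CD3E at 0 in all 3, while fibroblast markers summed to 27.2 to 34.6 CPM, mostly COL1A1. In bulk RNA, fewer cells of a type and less RNA per cell cannot be told apart.

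CASP8 and CASP10, the initiators of the death receptor pathway, had the lowest knockdown values of the 8 genes relative to the control, with mean CPM lower by 18.8% and 29.6%. The means of APAF1, CFLAR and XIAP were lower by 3.34% to 8.91%, that of CASP2 was higher by 4.81%, and CASP9 and CASP6 lay on either side of the control depending on the hairpin. None of the 8 passed edgeR's quasi-likelihood test (adjusted p = 0.999 for each, adjusted over all genes tested), where 2 of 17713 genes (0.0113%) passed, both lower. At an unadjusted p under 0.05 there was 1 of the 8, CASP10, against 3.88% of all genes tested. DESeq2 and limma-voom also called none of the 8, where they called 0.0169% and 0.00565% of all genes tested. At an unadjusted p under 0.05 they had 0 and 1 of the 8, against 0.954% and 2.99% of all genes tested. Nothing in the labels says that the libraries came from separate cultures. A p-value here thus reflects no more than the spread among the libraries sequenced, which may be technical. For each gene that spread has 1 residual degree of freedom, the difference between the hairpins. All the methods used here moderate it with the spread of the other genes.

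**Figure D1:**
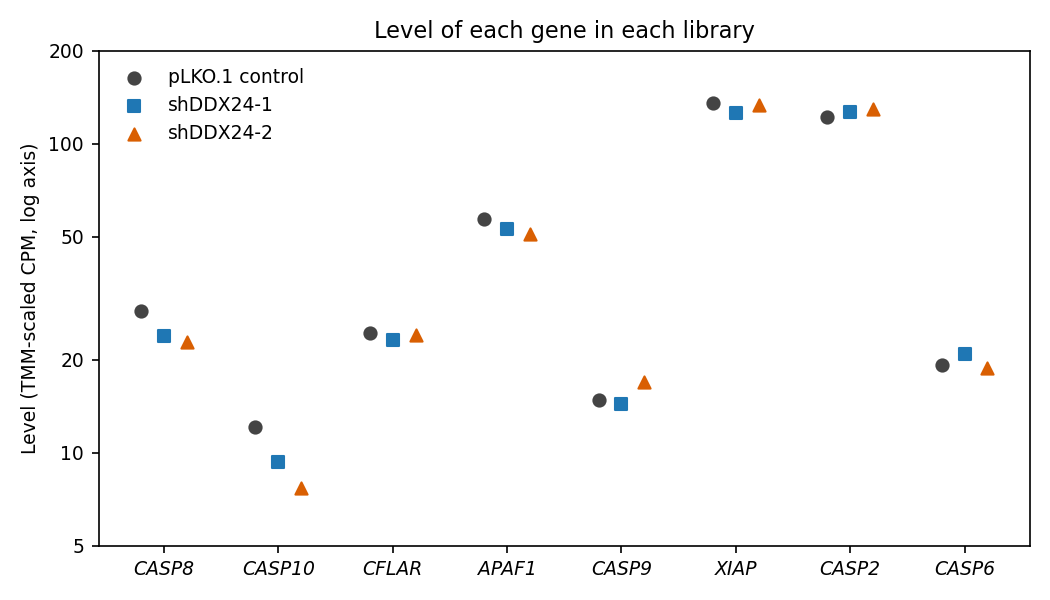
Level of each of the 8 genes in the 3 libraries, in TMM-scaled CPM on a log axis; each point is 1 library. XIAP and CASP2 lie above 120 CPM in every library and CASP10 lies lowest, at 12.1, 9.36 and 7.71 CPM.

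CASP8 (ENSG00000064012.21, GRCh38 chromosome 2, 201233443 to 201287711, plus strand) is the main initiator under the receptors FAS and TRAIL-R2. It had 1519 counts in the control, 881 with shDDX24-1 and 848 with shDDX24-2. On the TMM scale that was 28.8, 23.8 and 22.9 CPM. Both knockdown libraries were below the control and close to each other, with a mean of 23.3 ± 0.69 CPM (SD, n = 2). Relative to the control its log2 ratio was -0.27 with shDDX24-1 (95% exact binomial interval, -0.39 to -0.15) and -0.33 with shDDX24-2 (-0.45 to -0.21). These intervals, here and below, cover counting error only, and both ratios share the single control library. The group's log2 fold change was -0.30 ± 0.15 (SE), with an unadjusted p of 0.091 in edgeR. Of all genes tested, 13.1% had a lower fold change.

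CASP10 (ENSG00000003400.14, chromosome 2, 201182881 to 201229406, plus strand), a close relative of CASP8 that mice do not have, was the least abundant of the 8 in CPM. Its counts were 640 in the control, 346 with shDDX24-1 and 286 with shDDX24-2, or 12.1, 9.36 and 7.71 CPM. Both knockdown libraries were again below the control, and shDDX24-2 was the lower of them. The log2 ratio was -0.37 with shDDX24-1 (-0.57 to -0.18) and -0.65 with shDDX24-2 (-0.86 to -0.45). Between the hairpins the log2 ratio of shDDX24-2 to shDDX24-1 was -0.28 (-0.51 to -0.05), with 1 library each and no replicate check. The log2 fold change of the group was -0.51 ± 0.21 (SE), the largest of the 8 in size, and 6.68% of all genes tested had a lower one. Its unadjusted p in edgeR was 0.0496, and over the alternatives it ran from 0.032 with library totals to 0.108 without the low-count filter. CASP10 was the 1 member with a log2 ratio of -0.3 or lower with both hairpins, a limit set after the values were seen, which 6.81% of all genes tested met.

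CFLAR (ENSG00000003402.20, chromosome 2, 201116154 to 201176687, plus strand), the inactive relative that limits CASP8 activation, kept a narrow range. It had 1287, 854 and 891 counts in the control, shDDX24-1 and shDDX24-2 libraries, or 24.4, 23.1 and 24.0 CPM. The log2 ratios were -0.08 (-0.20 to 0.05) and -0.02 (-0.15 to 0.10), and both intervals included 0. The log2 fold change was -0.05 ± 0.16 (SE).

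**Figure D2:**
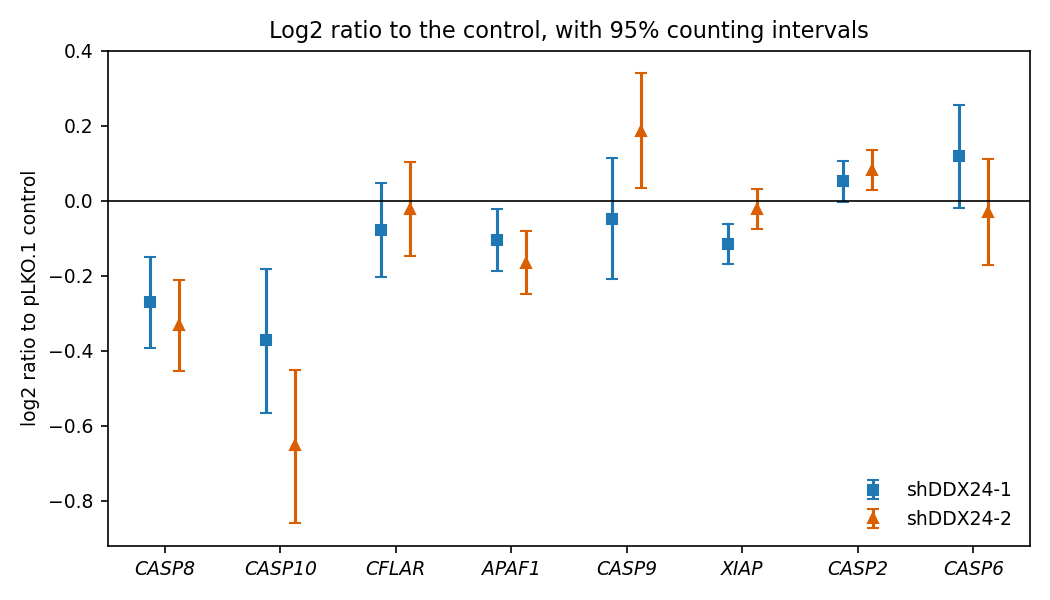
Log2 ratio of each knockdown library to the pLKO.1 control for the 8 genes; bars are 95% exact binomial intervals of the counts, which cover counting error only. CASP8 and CASP10 lie below 0 with both hairpins, CFLAR and CASP6 have intervals that include 0 with both, and CASP9 and CASP6 change side between hairpins.

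Since CFLAR and CASP8 compete for the same complex, the counts of CFLAR, CASP8 and CASP10 were also set against each other within each library, which needs no scaling between libraries. This comparison was chosen after the values were seen and has no test. CFLAR made up 37.4% of the 3446 counts of these 3 genes in the control (95% exact Clopper-Pearson interval, 35.7% to 39.0%). It made up 41.0% of 2081 counts with shDDX24-1 (38.9% to 43.2%) and 44.0% of 2025 with shDDX24-2 (41.8% to 46.2%). The CFLAR share was thus higher in both knockdown libraries than in the control. The control's interval overlapped that of shDDX24-1 but not that of shDDX24-2. CFLAR itself was at 24.4, 23.1 and 24.0 CPM in the control, shDDX24-1 and shDDX24-2 libraries. With CASP8 and CASP10 lower with both hairpins, the higher share did not come with a higher CFLAR level. The intervals cover counting error only, and no such shares were computed for other genes as a background. CASP10 made up 18.6% in the control (17.3% to 19.9%), 16.6% with shDDX24-1 (15.1% to 18.3%) and 14.1% with shDDX24-2 (12.6% to 15.7%). The share of CASP8 among CASP8 and CASP10 counts was 70.4% in the control (68.4% to 72.3%), 71.8% with shDDX24-1 (69.2% to 74.3%) and 74.8% with shDDX24-2 (72.2% to 77.3%). The control's interval overlapped both of the others, though that of shDDX24-2 only between 72.15% and 72.28%. Overlap of intervals does not test a difference, and whether CASP8 and CASP10 differed was not tested.

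**Figure D3:**
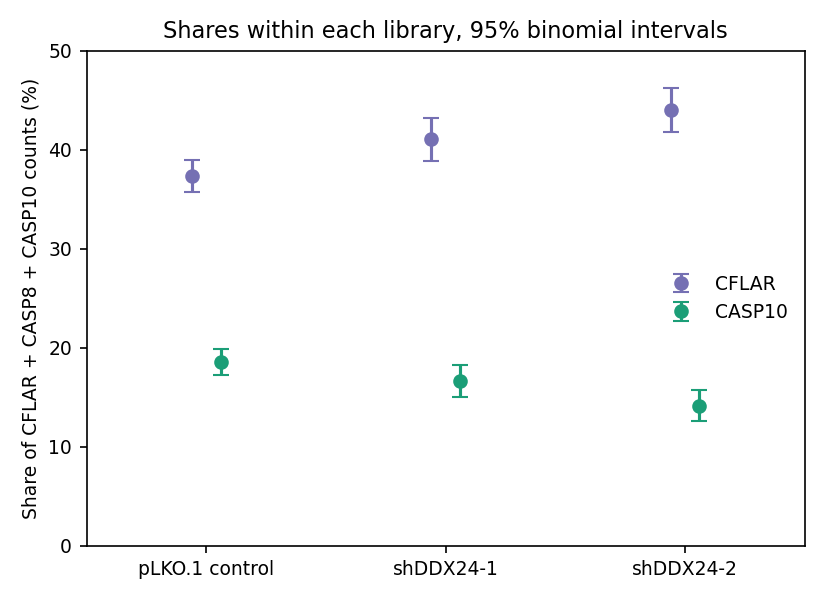
CFLAR and CASP10 as a share of the summed counts of CFLAR, CASP8 and CASP10 in each library, with 95% exact binomial intervals. The CFLAR share is 37.4%, 41.0% and 44.0% from left to right, and the CASP10 share is 18.6%, 16.6% and 14.1%.

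These 3 genes lie side by side on the same strand, in the order CFLAR, CASP10, CASP8, within 171558 bases of chromosome 2. CFLAR ends 6193 bases before CASP10 starts, and CASP10 ends 4036 bases before CASP8. Within 500 kb of this block 15 other genes were tested, of which 4 were lower with both hairpins, 4 higher with both and 7 had the control between the hairpins. Over all genes tested, 32% were lower with both, 31.9% higher with both and 36.1% between. None of the 15 passed edgeR, against 0.0113% of all genes tested, or had an unadjusted p under 0.05, against 3.88%. Their median log2 fold change was -0.02.

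The most abundant neighbours stayed near the control, apart from ORC2 with shDDX24-2, at a log2 ratio of 0.17. BZW1, a translation regulator, was at 289, 290 and 294 CPM in the control, shDDX24-1 and shDDX24-2 libraries, and ORC2, a subunit of the origin recognition complex, at 99.8, 99.7 and 113 CPM. TMEM237, a protein of the ciliary transition zone, had log2 ratios of 0.06 and -0.06, and STRADB, a pseudokinase, 0.01 and -0.05. The next tested gene on the CFLAR side, NDUFB3, a subunit of respiratory complex I, was higher with both hairpins, at 44.4 CPM in the control against 55.0 and 52.0. On the CASP8 side FLACC1 was under 0.5 CPM in all 3 libraries, and TRAK2, a mitochondrial transport adaptor, was at 45.1, 52.1 and 28.5 CPM, with opposite signs for the hairpins. Of the 3 neighbours at 5 CPM or more that were lower with both hairpins, CLK1, a kinase of splicing factors, lay furthest from the control, with log2 ratios of -0.31 and -0.09. NDUFB3, FLACC1, TRAK2 and CLK1 were named after their values were seen.

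**Figure D4:**
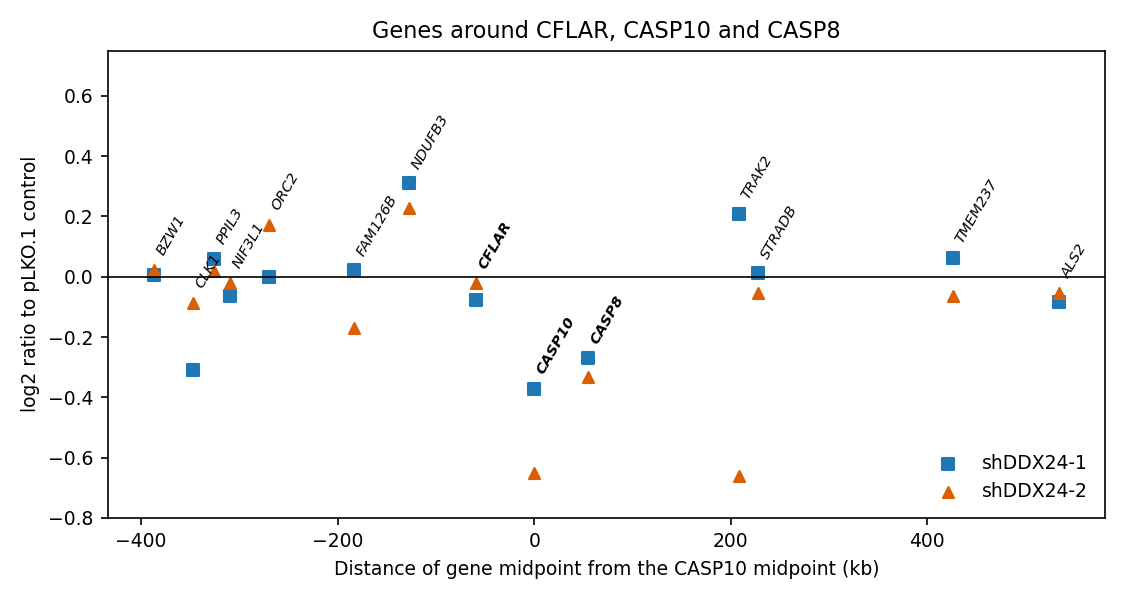
Log2 ratio of each knockdown library to the control for genes at 5 CPM or more within 500 kb of the CFLAR to CASP8 block, by distance in kb of the gene's midpoint from that of CASP10. CASP10 and CASP8 lie below 0 with both hairpins, CFLAR beside them lies near 0, and NDUFB3 lies above 0 with both.

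In the mitochondrial pathway APAF1 was slightly lower with both hairpins. APAF1 (ENSG00000120868.13, chromosome 12, 98645141 to 98735433, plus strand) had 3019, 1965 and 1892 counts in the control, shDDX24-1 and shDDX24-2 libraries. That was 57.2, 53.2 and 51.0 CPM, with a knockdown mean of 52.1 ± 1.5 CPM (SD, n = 2). The log2 ratios were -0.10 (-0.19 to -0.02) and -0.16 (-0.25 to -0.08), with both intervals below 0, and the group's log2 fold change was -0.13 ± 0.13 (SE). Its last 8977 bases overlap ANKS1B on the opposite strand, which held 123, 81 and 88 counts.

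CASP9 (ENSG00000132906.18, chromosome 1, 15490832 to 15526534, minus strand), the protease that APAF1 activates, was not lower with both hairpins. Its counts were 784, 531 and 627, or 14.8, 14.4 and 16.9 CPM. The control lay between the hairpins: the log2 ratio was -0.05 with shDDX24-1 (-0.21 to 0.11) and 0.19 with shDDX24-2 (0.03 to 0.34). The hairpins differed from each other by a log2 ratio of 0.23 (0.07 to 0.40), higher with shDDX24-2. The log2 fold change across the group was 0.07 ± 0.19 (SE).

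XIAP (ENSG00000101966.12, chromosome X, 123859724 to 123913979, plus strand), the direct inhibitor of CASP9 and of the effector caspases, had the highest CPM of the 8 in the control. It had 7175, 4641 and 4966 counts, or 136, 126 and 134 CPM. The log2 ratio was -0.11 with shDDX24-1 (-0.17 to -0.06) and -0.02 with shDDX24-2 (-0.07 to 0.03), so the lower value was mainly that of shDDX24-1. The log2 fold change was -0.07 ± 0.13 (SE). Within a library, XIAP made up 90.2% of the XIAP and CASP9 counts in the control (89.5% to 90.8%), 89.7% with shDDX24-1 (88.9% to 90.6%) and 88.8% with shDDX24-2 (87.9% to 89.6%).

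CASP2 (ENSG00000106144.20, chromosome 7, 143288215 to 143307696, plus strand), an initiator that responds to DNA damage and extra centrosomes, was the 1 member above the control with both hairpins. Its counts were 6460, 4690 and 4807, or 122, 127 and 130 CPM. The log2 ratios were 0.05 (-0.002 to 0.11) and 0.08 (0.03 to 0.14), and the fold change of 0.07 ± 0.13 (SE) on the log2 scale was smaller than its error.

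CASP6 (ENSG00000138794.10, chromosome 4, 109688622 to 109703583, minus strand), the effector that cuts lamin A, had 1013, 770 and 697 counts, or 19.2, 20.8 and 18.8 CPM. The log2 ratio was 0.12 with shDDX24-1 (-0.02 to 0.26) and -0.03 with shDDX24-2 (-0.17 to 0.11), so the control lay between the hairpins and both intervals included 0. CASP6 shares 98 bases at one end with MCUB on the opposite strand, which held 549, 528 and 548 counts, and the strand setting of the counting is not given.

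Together 5 of the 8 genes were lower with both hairpins, 1 was higher and 2 had the control between, against 32%, 31.9% and 36.1% of all genes tested. The median log2 fold change of the 8 was -0.06, beside 0.01 over all genes tested. The counting interval of the ratio to the control excluded 0 for 4 of the 8 with shDDX24-1, against 40.4% of all genes tested, and for 5 of the 8 with shDDX24-2, against 45.2%. That of the ratio between the hairpins excluded 0 for 3 of the 8 (CASP10, CASP9 and XIAP), against 42.6%. An interval that excludes 0 was therefore common in these libraries.

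Levels can be compared between the genes only per length, here as CPM per kilobase of annotated exon. In the control CASP2 was at 15.3 and XIAP at 15.1 CPM per kilobase, followed by CASP6 at 9.87 and APAF1 at 7.23. CASP8 was at 3.97, CASP9 at 2.82, CASP10 at 1.60 and CFLAR at 1.08. The low value of CFLAR rests on its annotated exon length of 22.5 kb, the longest of these genes. Before division by length it was at 24.4 CPM in the control, above CASP10 at 12.1. By the longest annotated transcript CFLAR was still lowest in the control, at 1.66, with CASP10 at 2.05. CASP8 (3.16 to 3.97 over the 3 libraries) and CASP9 (2.73 to 3.21) overlapped in range and exchanged places with shDDX24-2, as did CASP10 (1.01 to 1.60) and CFLAR (1.03 to 1.08); the other neighbours in that order did not overlap. The order depends on the length used: by the longest annotated transcript, a setting added after the data were seen, CASP8 was at 9.82 in the control, above APAF1 at 8.10.

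Other genes of the pathway were taken from 5 lists holding 42 genes, of which 34 passed the low-count filter. None of the 34 passed edgeR over all genes, where 0.0113% of all genes tested passed. At an unadjusted p under 0.05 there were 0, against 3.88% of all genes tested. With both hairpins 10 were lower and 10 higher, and 14 had the control between them, against 32%, 31.9% and 36.1% of all genes tested. Their median log2 fold change was 0.01. Of the 8 that were not tested, 3 were at 0 counts in all 3 libraries: the ligand FASLG, the inhibitor BIRC7, and GSDMD, which has a second gene model.

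Upstream of CASP8 and CASP10, 9 of 13 death receptor, ligand and adaptor genes were tested, with a median log2 fold change of -0.04. With both hairpins 5 were lower and 2 higher, against 32% and 31.9% of all genes tested. CYLD, a deubiquitinase that frees RIPK1 for death signalling, was at 47.2 CPM in the control against 41.2 and 34.3, a log2 fold change of -0.32 ± 0.16 (SE). The receptor FAS was at 8.88 against 8.17 and 7.65 CPM, and the adaptor TRAF2 was above the control, at 33.7 against 36.2 and 42.3 CPM. FADD, the adaptor that binds CASP8 directly, was at 42.2, 41.0 and 41.7 CPM; it was added once the values were known.

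Upstream of APAF1 and CASP9, all 5 genes for mitochondrial proteins were tested, with a median log2 fold change of 0.12. Of these, 3 were higher with both hairpins and 2 had the control between, against 31.9% and 36.1% of all genes tested. Cytochrome c, CYCS, was at 524 CPM in the control against 553 and 590, and the nuclease ENDOG at 24.3 against 26.1 and 27.9 CPM. DIABLO, which displaces XIAP from caspases, was listed at only 1.61 to 2.13 CPM. Its gene is covered in full by another coding gene model on the same strand, so its value is uncertain. It is given here for its role, outside the naming rule.

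For CASP2, its activator PIDD1 was at 10.9 CPM in the control against 13.4 and 15.5, a log2 fold change of 0.42 ± 0.20 (SE, unadjusted p = 0.074 in edgeR). CRADD, the adaptor between PIDD1 and CASP2, was at 6.34, 6.11 and 6.17 CPM. Among the other inhibitors of apoptosis, BIRC2 had log2 ratios of 0.02 and 0.12 and BIRC6 of -0.07 and -0.01, with 4 of 7 listed genes tested.

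Of 15 caspase substrates 14 were tested, with a median log2 fold change of 0.02. There were 3 lower, 3 higher and 8 between, against 32%, 31.9% and 36.1% of all genes tested. The 3 lower ones were PAK2, a kinase activated by caspase cleavage, at 130 CPM in the control against 110 and 112, LMNA, the lamin that CASP6 cuts, at 69.6 against 63.2 and 50.6, and SPTAN1, spectrin alpha, at 301 against 272 and 284. None of these genes passed the edgeR test (adjusted p = 0.999 for each).

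**Figure D5:**
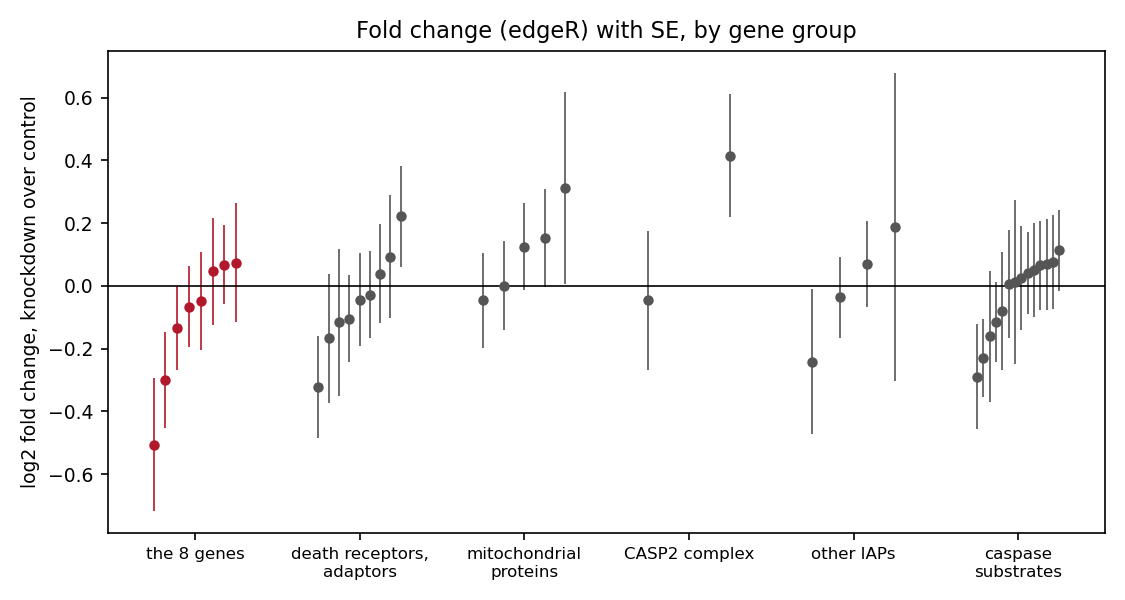
Log2 fold change of knockdown over control from edgeR, with its SE, for the 8 genes (red) and for the tested members of the 5 pathway lists (grey), each group in ascending order. CASP10 at -0.51 and PIDD1 at 0.42 are the lowest and highest points.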

How the data were processed

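The authors deposited whole-number read counts per gene model, not normalized. Per the submitters' processing notes, the build was GRCh38 (hg38) and the tools named are DESeq2 1.26 and STAR 2.7.3a, with no role stated. Which counter, strand setting and annotation release were used is not given in the sources used here. Of the 67008 gene models in the table, GENCODE release 29 held 41806 by versioned identifier, with equal coordinates for 100% of these. Coordinates of the other models were not compared.

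Counts were filtered with filterByExpr (minimum count 10) and scaled by TMM. Knockdown (2 libraries) was compared with control (1 library) in edgeR 4.0.16 (glmQLFit with legacy = FALSE, glmQLFTest; R 4.3.3), with Benjamini-Hochberg adjustment over all 17713 genes at 0.05. The lone control is assumed to vary like the hairpins. The SE of a log2 fold change is its size over the square root of F. Log2 ratios used a prior count of 2, with exact Clopper-Pearson intervals at 95%. The fit was run on simulated counts, where it called 87% of genes with a log2 change of 1 and 100% with 2. It also called 11 unchanged genes. Smaller changes, such as the -0.51 of CASP10, were not simulated. Every simulated library had the same spread, so the assumption about the lone control was not tested.

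The members and lists were chosen with earlier results of these data known. Some genes and 1 list are not reported here. Named were all members, the 4 most abundant neighbours within 500 kb, and up to 3 genes per list with the largest smaller ratio, at 5 CPM or more and with the same sign for both hairpins. Alternatives were DESeq2 size factors, library totals, no filter, DESeq2 1.42.0, limma-voom (3.58.1), removal of a GC and length trend, a prior count of 0.5 and leaving out each hairpin.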

Additional observations from a re-analysis of the deposited data

How the results depend on the processing

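The 8 genes kept the sign of their log2 fold change, and none was called, with DESeq2 size factors, library totals, no low-count filter, DESeq2, limma-voom or the GC and length trend removed. That of CASP10 ranged from -0.53 (library totals) to -0.51 and that of CASP8 from -0.33 to -0.28. Values near 0 moved by over 1.5 times: XIAP went from -0.07 to -0.03 and CASP9 from 0.07 to 0.05 with the GC and length trend removed, and with library totals CFLAR went from -0.05 to -0.08, CASP9 from 0.07 to 0.05, CASP2 from 0.07 to 0.04 and CASP6 from 0.05 to 0.02. Without shDDX24-1 it was -0.65 for CASP10 and without shDDX24-2 -0.37; with 1 library left on each side there is no test. CASP9 (0.19 and -0.05) and CASP6 (-0.03 and 0.12) changed sign this way. Over all genes the edgeR count of 2 became 0 with DESeq2 size factors (604 genes at an unadjusted p under 0.05), 7 with library totals, 0 without the filter (1789 at an unadjusted p under 0.05) and 1 with limma-voom; the cause was not tested. DESeq2 called 3. Scaling by library totals left 5 of the 8 lower and 1 higher with both hairpins, against 36.5% and 27.9% of all genes tested. No paired analysis was possible because the control group has 1 library. Depth limits the low genes: at 346 and 286 counts, the counting interval of the CASP10 log2 ratio between the hairpins ran from -0.51 to -0.05.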

Other observations

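BIRC5 and PANX1 were among the pathway genes lower with shDDX24-1 than in both the control and the shDDX24-2 library. There was 1 library each and no test, and BIRC5 and PANX1 were picked after their values were seen. Others had the same order, such as AIFM1 at 235, 208 and 247 CPM and ROCK1 at 127, 120 and 143 CPM in the control, shDDX24-1 and shDDX24-2. BIRC5, survivin, a mitotic protein of the IAP family, was at 242 CPM in the control, 164 with shDDX24-1 and 246 with shDDX24-2. PANX1, a channel opened by caspase cleavage, was at 23.1, 17.7 and 23.6 CPM. Among the marker genes of other cell types, HBB, a globin gene, had 75 counts in the control, 8 with shDDX24-1 and 4 with shDDX24-2.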
